A study of Homo sapiens with 16 samples.

Results

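In F1295A cells, few peaks of H3K27me3 and H3K4me3 overlapped: 96 of 2083 H3K27me3 peaks and 99 of 8239 H3K4me3 peaks met the other mark. The lists covered 38.8 Mb and 34.7 Mb, a small part of the genome, so unrelated lists would also overlap little. The overlap of unrelated lists of this size was not computed. The data set described here is the pair of peak lists from the F1295A form, each peak placed by its gap to the nearest peak of the other mark, and each protein-coding gene placed by whether it carried H3K27me3, H3K4me3, both or neither. All peaks of both lists were taken, which gave 10322 regions of 45429 in the series.

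The study profiled both marks by ChIPmentation, in which a transposase adds sequencing adapters to chromatin while it is held by the antibody, to ask how mutant NSD2 alters chromatin marks. The 4 forms were TKO cells expressing the NSD2 mutant F1295A, TKO cells expressing the NSD2 mutant D1240A, plain TKO cells, and TKO cells expressing wild type NSD2 (WT). All 4 share the TKO background, a derivative of the multiple myeloma line KMS-11 with the genotype WHSC1(+/-) and the cell type plasma cell in its labels. WHSC1 is the older name of NSD2, an H3K36 methyltransferase. How NSD2 was expressed, and whether a form is 1 clone, is not stated in the labels. Each form had 2 H3K27me3 samples, which share 1 peak list, and 1 H3K4me3 sample with its own list, so F1295A contributed 3 samples in 2 lists. With 1 list for each mark and form there is no spread between replicates, no test of a difference was possible, and intervals given below are exact Clopper-Pearson 95% intervals that cover counting error only. No read totals come with the lists, and the depth behind a peak is unknown.

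H3K27me3 is written by Polycomb repressive complex 2 and lies in broad domains over silent genes, many of them developmental regulators. H3K4me3 sits in narrow domains at the starts of active genes, and at CpG-rich promoters of silent ones that are held poised. Where both lie on a promoter it is called bivalent, a state best known from embryonic stem cells, although in a peak list from a cell population both marks on a base can also come from different cells or different alleles, which these data cannot tell apart. H3K36 methylation, the product of NSD2, hinders Polycomb repressive complex 2 on the same histone tail.

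Of the 10 plasma cell markers, 7 carried H3K4me3 without H3K27me3 in F1295A, namely IRF4, PRDM1, XBP1, TNFRSF17, MZB1, JCHAIN and POU2AF1. SDC1 carried both marks, and CD38 and SLAMF7 neither. Of the B cell markers reported here, CD79A carried H3K4me3, and PAX5, MS4A1 and EBF1 carried neither mark. None of the 13 T cell, myeloid, stromal and epithelial markers carried H3K4me3, and 2 of them carried H3K27me3, the myeloid MPO and the stromal COL1A1. In a longer list of 20 stromal and endothelial genes, VIM and ACTA2 carried H3K4me3 only, CDH5 and COL1A1 H3K27me3 only, and 16 neither. Over all protein-coding genes, 43.5% carried H3K4me3 only, 4.82% H3K27me3 only, 0.971% both and 50.7% neither, by a peak within 1 kb of either gene end.

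The promoters of 6 genes that stand for the 4 classes are shown before the values, each as the 250 bases before the gene start in RefSeq, build GRCh38.p14, written 5′ to 3′ along the gene with every CG dinucleotide in capitals. FGFR3, SDC1 and DLL4 had both marks at the start in F1295A, GATA2 had H3K27me3 only, IRF4 had H3K4me3 only and CD38 had neither.
FGFR3, chr4:1793043-1793292, plus strand: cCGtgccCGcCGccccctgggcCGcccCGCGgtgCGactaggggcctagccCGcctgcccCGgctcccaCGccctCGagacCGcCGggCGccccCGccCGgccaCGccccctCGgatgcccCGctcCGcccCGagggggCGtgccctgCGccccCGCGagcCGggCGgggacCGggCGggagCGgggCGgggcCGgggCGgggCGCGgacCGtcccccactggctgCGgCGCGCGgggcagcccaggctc
SDC1, chr2:20225476-20225725, minus strand: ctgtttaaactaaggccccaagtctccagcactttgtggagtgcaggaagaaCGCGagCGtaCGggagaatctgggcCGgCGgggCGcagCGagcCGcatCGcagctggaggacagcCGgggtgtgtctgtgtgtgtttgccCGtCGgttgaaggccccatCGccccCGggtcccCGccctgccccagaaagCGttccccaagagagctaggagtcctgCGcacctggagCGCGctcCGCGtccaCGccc
DLL4, chr15:40929090-40929339, plus strand: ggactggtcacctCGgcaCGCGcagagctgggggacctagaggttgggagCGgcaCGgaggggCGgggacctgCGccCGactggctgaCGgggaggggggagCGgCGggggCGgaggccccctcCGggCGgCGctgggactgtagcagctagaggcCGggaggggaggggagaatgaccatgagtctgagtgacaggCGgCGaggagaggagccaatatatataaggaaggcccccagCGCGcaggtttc
GATA2, chr3:128493202-128493451, minus strand: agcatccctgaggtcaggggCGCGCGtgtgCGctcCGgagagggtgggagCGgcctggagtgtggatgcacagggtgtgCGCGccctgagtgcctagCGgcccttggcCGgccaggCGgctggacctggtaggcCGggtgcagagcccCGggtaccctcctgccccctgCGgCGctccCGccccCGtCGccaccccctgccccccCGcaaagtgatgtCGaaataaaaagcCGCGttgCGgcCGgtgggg
IRF4, chr6:391502-391751, plus strand: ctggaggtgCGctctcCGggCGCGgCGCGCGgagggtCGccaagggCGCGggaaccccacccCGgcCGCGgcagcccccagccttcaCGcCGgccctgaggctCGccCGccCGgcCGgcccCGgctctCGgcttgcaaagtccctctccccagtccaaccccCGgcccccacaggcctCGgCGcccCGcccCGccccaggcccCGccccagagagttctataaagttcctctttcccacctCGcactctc
CD38, chr4:15778078-15778327, plus strand: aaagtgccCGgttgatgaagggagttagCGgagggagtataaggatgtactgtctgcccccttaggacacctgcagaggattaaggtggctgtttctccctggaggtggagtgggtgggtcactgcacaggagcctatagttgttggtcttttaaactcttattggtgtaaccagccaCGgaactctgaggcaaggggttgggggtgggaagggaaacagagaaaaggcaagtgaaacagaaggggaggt
The FGFR3 stretch holds 40 CG, SDC1 23, DLL4 20, GATA2 24 and IRF4 28, whereas that of CD38 holds 3. IRF4 alone among the 6 has the letters TATAAA on either strand.

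The starts of FGFR3, SDC1 and DLL4 lay under both marks in F1295A, and their H3K4me3 peaks were listed in some of the other forms and not in all. These 3 are shown in full, chosen after their values were seen. FGFR3, a receptor tyrosine kinase whose gene lies beside NSD2 and is joined to the immunoglobulin heavy chain locus in t(4;14) myeloma, occupies chr4:1793293-1808867 on the plus strand. Its H3K27me3 peak in F1295A was 11.3 kb wide and its H3K4me3 peak 11.2 kb, and they shared 7.13 kb that included the start base. D1240A had 10.99 kb of H3K27me3 and no H3K4me3 within 10 kb of the gene ends, TKO had 9.22 kb and none, and WT had 20.8 kb of H3K27me3 and 6.43 kb of H3K4me3. The H3K4me3 peak was wide and low: its highest signal of 99 ranked at percentile 0.0425 among F1295A H3K4me3 peaks, and that of WT, 75, at percentile 0.0184 among WT ones.

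SDC1 encodes syndecan-1, also known as CD138, the surface antigen by which plasma cells are commonly isolated, and lies at chr2:20200797-20225475 on the minus strand. In F1295A its start lay under a 13.3 kb H3K27me3 peak that contained the whole of a 3.20 kb H3K4me3 peak. Within 10 kb of the gene ends H3K27me3 covered 8.28 kb in D1240A, 8.56 kb in TKO and 9.99 kb in WT, while H3K4me3 was listed in neither D1240A nor TKO and covered 2.799 kb in WT. The H3K4me3 peak again ranked low, at the 2.03rd percentile of its list in F1295A and the 0.670th in WT.

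DLL4, a Notch ligand, lies at chr15:40929340-40939073 on the plus strand. A 7.67 kb H3K27me3 peak in F1295A held a 6.22 kb H3K4me3 peak, from 2.84 kb before the start to 3.38 kb after it. D1240A had 8.26 kb of H3K27me3 and 5.57 kb of H3K4me3, TKO had 7.63 kb of H3K27me3 and WT 9.15 kb, with no H3K4me3 at the start in TKO or WT. An H3K4me3 peak beyond the gene, 22.4 kb after the start in F1295A, was present in all 4 forms. LHX4, a LIM homeobox transcription factor, had both marks at its start in all 4 forms, with 10.1 kb of H3K27me3 and 5.38 kb of H3K4me3 within 10 kb of the gene ends in F1295A. FGFR3 and SDC1 thus carried H3K4me3 in F1295A and WT, and DLL4 in F1295A and D1240A. A peak missing from a list is one that was not called, since the threshold and depth of each list are unknown.

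**Figure D1:**
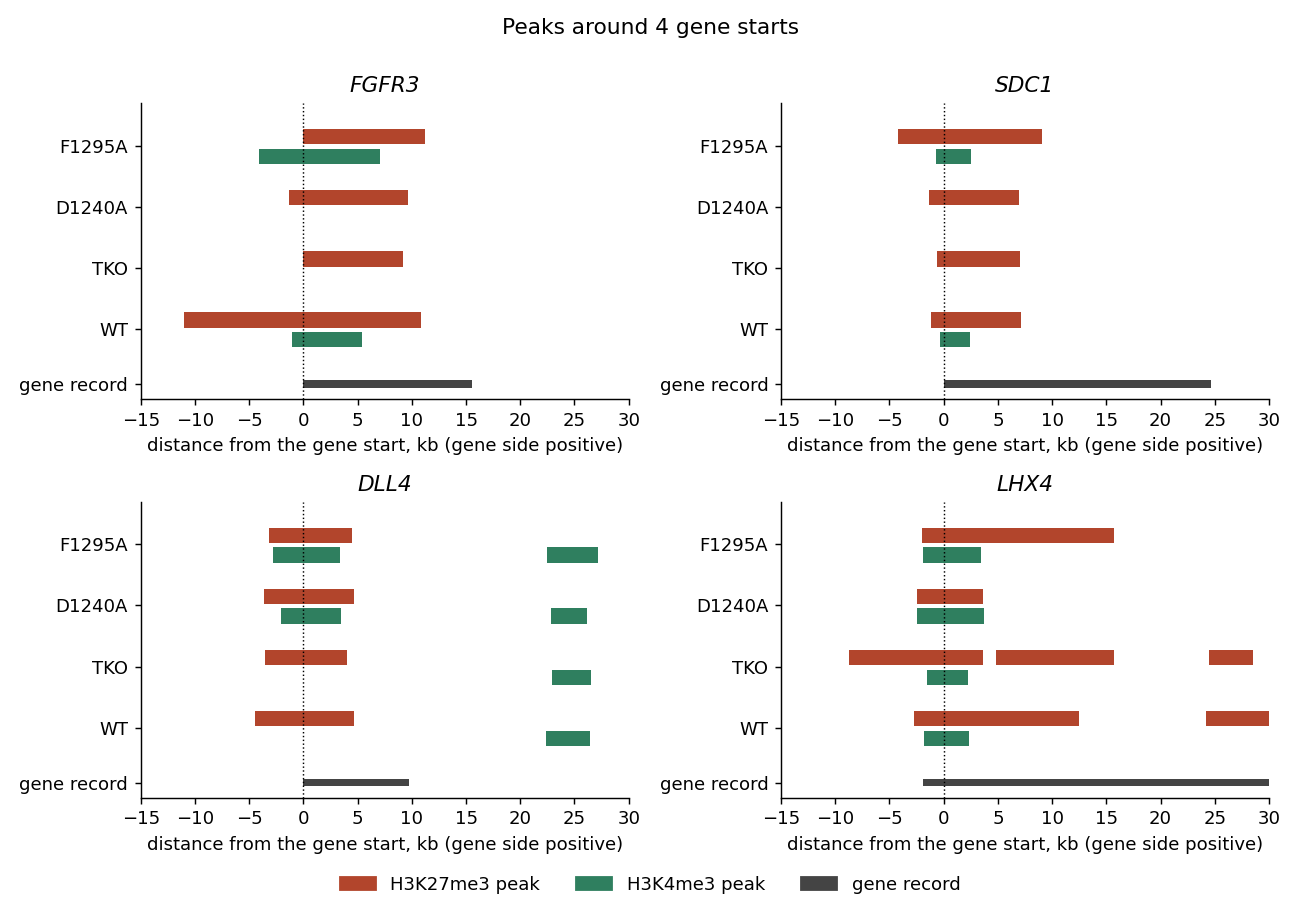
Peaks of H3K27me3 (red) and H3K4me3 (green) around the starts of FGFR3, SDC1, DLL4 and LHX4 in F1295A, D1240A, TKO and WT cells, with the gene record in grey. The horizontal axis is the distance from the gene start in kb, positive on the gene side, and peaks are drawn as far as the axis reaches. In F1295A the start line crosses both colours in all 4 genes.

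The H3K27me3 list covered 38.8 Mb in peaks of a median 12792 bp, and the H3K4me3 list covered 34.7 Mb in peaks of a median 3701 bp. Overlap of at least 1 bp joined them in 99 pairs that shared 319.1 kb. That is 0.821% of the bases under H3K27me3 and 0.919% of those under H3K4me3. The overlapping peaks were 4.61% of the H3K27me3 list (3.75% to 5.60%) and 1.20% of the H3K4me3 list (0.978% to 1.46%).

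Around these lay a thin margin of neighbours. Peaks with a gap under 1 kb, called abutting here, numbered 20 for H3K27me3 and 18 for H3K4me3, and peaks 1 to 10 kb away, called near, numbered 202 and 230. The exclusive peaks, over 10 kb from the other mark, were 1765 for H3K27me3 (84.7%) and 7892 for H3K4me3 (95.8%). The lists were not equally far from each other. The median gap of peaks without overlap was 64.9 kb from an H3K27me3 peak to the nearest H3K4me3 peak and 625 kb from an H3K4me3 peak to the nearest H3K27me3 peak. Only 5 H3K27me3 peaks, against 3491 H3K4me3 peaks (42.4%), were over 1 Mb from the other mark. The lists differ in length, at 2083 H3K27me3 and 8239 H3K4me3 peaks, and the part of that in the gaps was not tested.

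**Figure D2:**
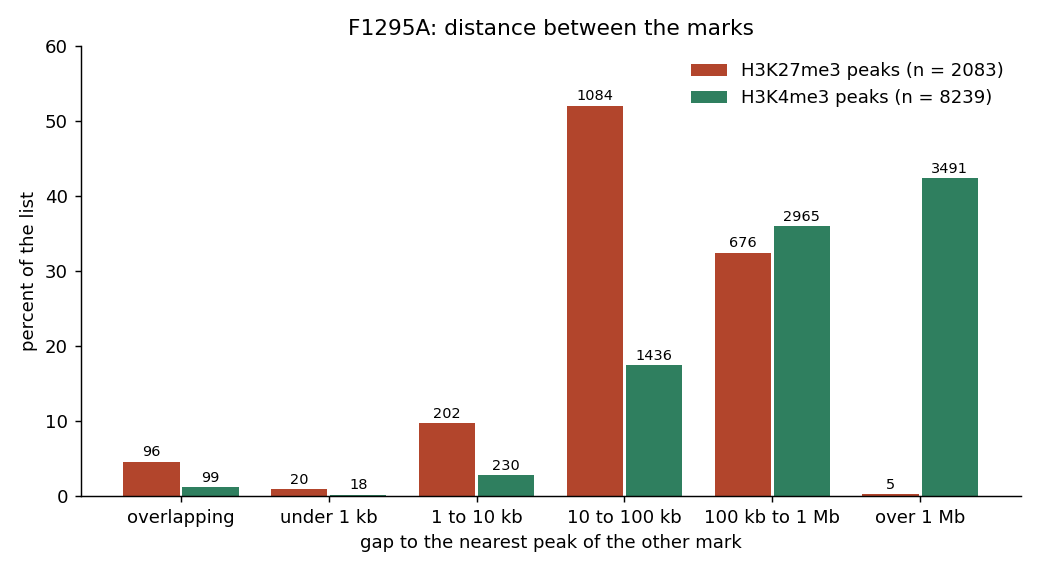
Percent of the F1295A H3K27me3 list (red) and H3K4me3 list (green) by gap to the nearest peak of the other mark, with the number of peaks above each bar. The largest H3K27me3 class, 1084 peaks, lies 10 to 100 kb from H3K4me3, whereas 3491 H3K4me3 peaks lie over 1 Mb from H3K27me3.

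Where a gap under 10 kb was found, it was mostly on one side. Of 222 H3K27me3 peaks without overlap and with H3K4me3 within 10 kb, 23 had it on both sides, and of 248 such H3K4me3 peaks 8 had H3K27me3 on both sides. At gene starts the side differed between marked and unmarked starts. Of 7135 starts with H3K4me3 and no H3K27me3 within 1 kb, 175 (2.45%) had H3K27me3 1 to 10 kb away: 127 upstream of the gene, 40 on the gene side and 8 on both. The upstream share of the one-sided cases was 76.0% (68.8% to 82.3%). Of 8068 starts with neither mark, 238 had H3K27me3 1 to 10 kb away, and the upstream share was 41.0% (34.2% to 47.9%), 86 against 124. The same shares were 75.7% and 44.3% in D1240A, 83.0% and 46.8% in TKO, and 76.8% and 42.2% in WT. Neighbouring starts can share a peak, so these starts are not independent.

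The abutting pairs with the widest summed peaks placed an H3K27me3 domain beside the H3K4me3 peak of an adjacent gene start. At YTHDF1, a reader of N6-methyladenosine in RNA, a 4.04 kb H3K4me3 peak ended 536 bp from a 51.3 kb H3K27me3 domain over BIRC7 and NKAIN4. At PIAS3, an inhibitor of STAT3, a 6.28 kb H3K4me3 peak lay 200 bp from a 42.8 kb domain over ANKRD35 and the integrin gene ITGA10. LEMD2, a nuclear envelope protein, had a 2.57 kb H3K4me3 peak 10 bp from a 45.8 kb domain over MLN, which encodes the gut hormone motilin. The H3K4me3 peak of SLC50A1 and DPM3, 9.32 kb wide, lay 563 bp from a 31.0 kb domain over the ephrin gene EFNA1. ZNF862 (188 bp) and PPP1R12C (15 bp) completed the 6 widest, the domain beside PPP1R12C lying over the slow skeletal muscle troponin gene TNNT1.

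Within the overlapping pairs the usual arrangement was partial. In 76 of 99 pairs the peaks overlapped at an edge, in 19 the H3K4me3 peak lay inside the H3K27me3 peak, and in 4 the H3K27me3 peak lay inside the H3K4me3 peak. The highest point of the H3K4me3 peak was under H3K27me3 in 53 pairs. Of the 99 shared pieces, 42 were within 1 kb of a known gene start, 65 within 1 kb of a gene end of either kind, 22 lay inside a gene record away from its ends and 12 outside gene records.

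The widest shared pieces fell on a few loci. The first, 10.9 kb on chromosome 12 (chr12:57235190-57246104), was a low H3K27me3 peak at the 22.8th percentile of its list that lay wholly inside a 19.5 kb H3K4me3 peak over COXFA4L2 and STAC3 and beside SHMT2, the mitochondrial serine hydroxymethyltransferase. D1240A, TKO and WT had 0 bp of H3K27me3 in this piece and 10904, 7811 and 10915 bp of H3K4me3. The second, 9.17 kb over CRIP2 on chromosome 14, was the reverse in rank: its H3K27me3 peak stood at the 97.9th percentile, with H3K27me3 over 9172 bp in D1240A, 8568 bp in TKO and 0 bp in WT. The third, 8.75 kb at the 3′ end of SAMD11 beside NOC2L on chromosome 1, had both marks in all 4 forms.

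The fourth, 8.12 kb on chromosome 17 beyond CBX8, touched no gene end. D1240A, TKO and WT had 7405, 7262 and 8120 bp of H3K27me3 there and 0 bp of H3K4me3 in each. The next 4 were at GLI1 (7.51 kb), a transcription factor of Hedgehog signalling, at FGFR3 (7.13 kb), inside LTBP4 (7.04 kb), a binding protein of latent TGF-beta, and from the end of LRP1 into NXPH4 (6.98 kb). In the LRP1 piece an H3K4me3 peak lay inside a 99.9 kb H3K27me3 domain.

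Some pieces lay close together. A stretch of 2817 kb of chromosome 1 (chr1:154322561-157140014) held 8 of the 99, at genes that include MUC1, THBS3, LMNA and ETV3. A stretch of 1472 kb of chromosome 12 (chr12:56078682-57550942) held 7, from ERBB3 to KIF5A, and 3 lay within 38.5 kb at CBX2 and CBX8, Polycomb subunits that bind H3K27me3. Chromosome 1 held 26 of the 99 pairs, with 387 of the 2083 H3K27me3 and 868 of the 8239 H3K4me3 peaks. The share of H3K27me3 peaks that overlapped H3K4me3 was 6.46% there, 7.55% on chromosome 2 and 12.3% on chromosome 12, against 4.61% of the whole list, and on chromosome 18 it was 1 of 6 peaks. Chromosomes 5, 13, 21, 22 and X held none.

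Overlapping peaks differed from exclusive ones in rank by highest signal, and in opposite directions for the marks. Overlapping H3K27me3 peaks had a median highest signal at the 68.4th percentile of their list (quartiles 50.4 and 88.3), against the 47.1st (22.8 and 72.8) for exclusive ones, at a near equal median width of 11923 bp and 12811 bp. Overlapping H3K4me3 peaks were wider, at a median of 5277 bp against 3678 bp, and lower, with the highest signal at the 30.7th percentile (8.0 and 70.8) against the 50th (25.2 and 74.8). By total signal over width they stood at the 21.1st percentile, against the 50.5th for exclusive peaks. By total signal, overlapping H3K27me3 peaks had a median at the 48.9th percentile, little different from the 50.2nd of exclusive ones. For H3K4me3 peaks these medians were the 38.2nd and the 50.1st. H3K4me3 peaks both wider and lower than their list's median were 50.5% (40.3% to 60.7%) of the overlapping peaks and 18.1% (17.2% to 18.9%) of the exclusive ones. The same shares were 57.4% and 18.1% in D1240A, 45% and 19.5% in TKO, and 41.1% and 17.7% in WT. Of H3K27me3 peaks, 5.21% of the overlapping and 20.5% of the exclusive were wider and lower than the median in F1295A.

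With each list split into 4 near equal parts, the overlap moved with rank. From the weakest to the strongest part of the H3K27me3 list by highest signal, 2.12%, 2.48%, 5.60% and 8.22% overlapped H3K4me3. In the same order 2.18%, 0.875%, 0.630% and 1.12% of H3K4me3 peaks overlapped H3K27me3, and by width from narrow to wide the H3K4me3 share was 0.388%, 0.534%, 0.971% and 2.91%. A wider peak has more bases with which to meet the other mark, and the part of that in the H3K4me3 shares was not tested.

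**Figure D3:**
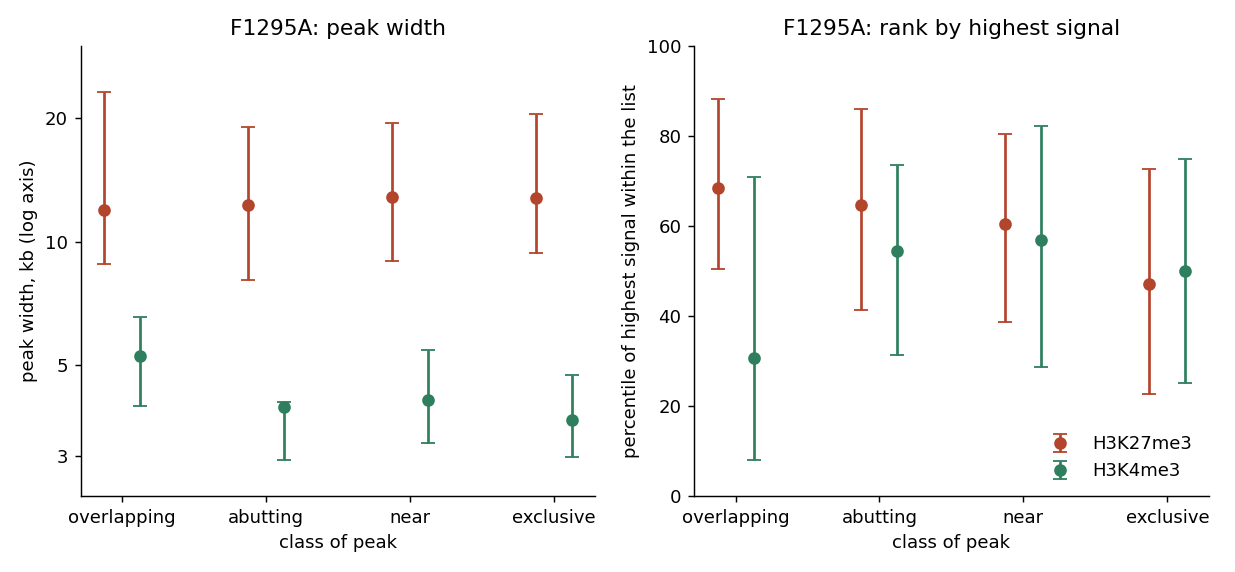
Median (point) and quartiles (bars) of peak width in kb, on a log axis, and of the percentile of the highest signal within its own list, for F1295A H3K27me3 (red) and H3K4me3 (green) peaks by class. Overlapping H3K4me3 peaks sit above the other H3K4me3 classes in width and below them in rank, and overlapping H3K27me3 peaks have the highest median rank of their mark.

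At the top of the lists, 4 of the 5 widest peaks of each mark were exclusive, beside 84.7% of all H3K27me3 and 95.8% of all H3K4me3 peaks. The widest H3K27me3 peaks lay over RBFOX3 (398 kb), which encodes the neuronal antigen NeuN, CASZ1 (238 kb), GSE1 (236 kb) and CDH23 (195 kb), all exclusive, and over LMF1, SOX8 and SSTR5 (177 kb), which overlapped H3K4me3. By total signal TTC34 took the place of CDH23 among the first 5. The widest H3K4me3 peaks lay over MCL1 and ADAMTSL4 (33.2 kb), ZNF217 (25.4 kb), CKS1B and SHC1 (24.5 kb), PRDM1 (23.6 kb) and CRIP1 and CRIP2 (22.1 kb). The PRDM1 peak lay inside the gene record and covered the gene start used here. Of these 5, the peak over CRIP1 and CRIP2 alone overlapped H3K27me3. MCL1 is a survival factor of the BCL2 family and PRDM1 a regulator of plasma cell identity. The first 5 H3K4me3 peaks by total signal were all exclusive, 4 of them on chromosome 1, at HDGF, ARHGEF2, ZBTB7B and YY1AP1, and the other at ATP5F1B on chromosome 12.

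One further overlap stood out at NSD2 itself. F1295A had a 263 bp H3K27me3 peak (chr4:1978747-1979009) inside a 1043 bp H3K4me3 peak (chr4:1978176-1979218), 3183 bp from the 3′ end of the gene record at chr4:1871393-1982192. The highest signal of the H3K4me3 peak, 4374, was first in its list, above the next at 3438, and its width was the narrowest in the list. The H3K27me3 peak, with a highest signal of 1279 against a list median of 96, ranked 5th of 2083. D1240A, TKO and WT had no peak of either mark there, while the H3K4me3 peak over the NSD2 start was listed in all 4 forms. F1295A cells express an NSD2 construct, as do D1240A and WT cells, and whether reads from a construct map here was not tested, so the pair may not be marks on the chromatin of the gene. It is 1 of the 99 overlapping pairs and holds 263 bp of the shared bases.

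Gene classes were set by a peak within 1 kb of either end of the record, because a start was known for 79.2% of the 19970 protein-coding genes. In F1295A, 962 genes carried H3K27me3 only (4.82%), 194 both marks (0.971%), 8691 H3K4me3 only (43.5%) and 10123 neither (50.7%). H3K4me3 was carried by 16.8% (14.7% to 19.1%) of 1156 genes with H3K27me3, and by 46.2% (45.5% to 46.9%) of 18814 genes without it. The same shares were 13.5% and 43.2% in D1240A, 11.1% and 43.1% in TKO, and 16.6% and 46.5% in WT. At the 15811 known starts the split was 561 with H3K27me3 only (3.55%), 47 with both (0.297%), 7135 with H3K4me3 only (45.1%) and 8068 with neither (51.0%), and H3K4me3 lay at 7.73% (5.73% to 10.1%) of starts with H3K27me3 and 46.9% (46.1% to 47.7%) of those without.

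Many of the 194 genes with both marks did not carry them at the same place. Both marks were at the same end in 95 and at opposite ends in 99. Among the 77 with marks at opposite ends and a known start, H3K4me3 was at the start and H3K27me3 at the far end in 43, H3K27me3 at the start and H3K4me3 at the far end in 30, and 4 had neither within 1 kb of the start. In 19 of those 30 the far H3K4me3 peak was also within 1 kb of the start of another gene. NECTIN4, KCNH6, NOTCH4 and EFNA1 were among the 30.

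The 10 genes with the most shared bases within 10 kb of their ends belonged to the loci above: COXFA4L2 and STAC3 (10.9 kb each), SHMT2 (10.4 kb), LRP1 (10.2 kb), CRIP2 (9.17 kb), THBS3 (9.07 kb), NOC2L and SAMD11 (8.75 kb each), NXPH4 (8.24 kb) and GLI1 (7.51 kb). Of the 10, 6 lie in the chromosome 12 stretch. The genes with the most H3K27me3 and no H3K4me3 at their ends were ADAMTSL2, ADORA1, EPHA8, FAM163B, NTSR1, RSPO1 and XKR7, covered over all 40.0 kb within 10 kb of their ends, then DBH (39.1 kb), HOXC4 (38.8 kb) and TNNT2 (38.7 kb). ADORA1 is an adenosine receptor, EPHA8 an ephrin receptor, NTSR1 the neurotensin receptor, RSPO1 a WNT agonist, DBH the enzyme that makes noradrenaline and TNNT2 cardiac troponin T. These 10 also carried H3K27me3 only in D1240A, TKO and WT. The genes with the most H3K4me3 and no H3K27me3 at their ends were MAFG (29.8 kb), SHC1 (27.5 kb), INTS11 (24.0 kb), AMDHD2 (23.7 kb), TBL3 (23.5 kb), RARG (23.04 kb), ADAMTSL4 (22.9 kb), MIDN (22.7 kb), VEGFB (21.97 kb) and BMI1 (21.9 kb). RARG also had 3.14 kb of H3K27me3 within 10 kb, and BMI1 encodes a Polycomb repressive complex 1 subunit. All of these genes but ADAMTSL4 also carried H3K4me3 only in D1240A, TKO and WT. ADAMTSL4 carried neither mark in D1240A, both in TKO and H3K4me3 only in WT.

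Among the 47 starts with both marks, 10 had both in all 4 forms: LHX4, BAHD1, EFTUD2, DNAAF19, TNRC6C, SLC17A7, CHPF, TMEM198, MDGA1 and ZNF467. Both marks were listed at the start in F1295A and no other form at 5, PIGM, COXFA4L2, LMF1, PCSK4 and REEP6. Some of these calls turn on the definition: by gene end PIGM carried both marks in all 4 forms, BAHD1 carried both in F1295A and H3K27me3 only in the other forms, and LMF1 and ZNF467 carried H3K27me3 only in F1295A. D1240A had both marks at 25 of the 47, H3K27me3 only at 7 and H3K4me3 only at 14. TKO had both at 18, H3K27me3 only at 22 and H3K4me3 only at 5, and WT had both at 38, with 5 and 4. The starts that carried H3K27me3 only in TKO included FGFR3, SDC1, DLL4, FZD4, SEMA6C, PLXNA2 and KCNH2. For genes with both marks at the start, the widest H3K4me3 peak within 1 kb of either gene end had a median of 5.33 kb. For genes with H3K4me3 only at the start it was 3.82 kb. The highest percentile of highest signal among such peaks, taken separately from width, had medians of 32.9 and 55.9. Genes with no H3K4me3 peak at a gene end, such as LMF1 and ZNF467, were left out of these medians.

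By gene end, genes with a single mark in F1295A mostly had the same class in the other forms. Of 962 genes with H3K27me3 only, 805 were H3K27me3 only in D1240A, 924 in TKO and 927 in WT, and none was H3K4me3 only in any of them. Of 8691 genes with H3K4me3 only, 8078 were so in D1240A, 7674 in TKO and 8247 in WT. Of the 194 genes with both marks, 118 had both in D1240A, 107 in TKO and 152 in WT, and 78 had both in all 4 forms. Those that did not were mostly H3K4me3 only in D1240A (43, against 25 H3K27me3 only) and mostly H3K27me3 only in TKO (69, against 15) and WT (27, against 13). The H3K27me3 lists differ in length, at 2083 peaks in F1295A, 2188 in D1240A, 3790 in WT and 5881 in TKO. So do the H3K4me3 lists, at 8239 peaks in F1295A, 7712 in D1240A, 8140 in WT and 7396 in TKO. The part of list length in the gene counts of the other forms was not tested.

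With each list cut to the same number of its strongest peaks by total signal, 2083 for H3K27me3 and 7396 for H3K4me3, the overlap was 86 H3K27me3 peaks in F1295A (4.13%, 3.32% to 5.07%), 64 in D1240A (3.07%, 2.37% to 3.91%), 36 in TKO (1.73%, 1.21% to 2.38%) and 88 in WT (4.22%, 3.40% to 5.18%). Uncut, it was 4.61%, 3.11%, 1.36% and 4.09%. The shared bases were 293.9 kb, 167.3 kb, 66.3 kb and 230.3 kb at equal numbers. As a share of H3K4me3 peaks, the overlap at equal numbers was 1.20% (0.967% to 1.48%) in F1295A, 0.852% (0.655% to 1.09%) in D1240A, 0.487% (0.341% to 0.673%) in TKO and 1.23% (0.992% to 1.51%) in WT. Uncut, the H3K4me3 share was 1.20% (0.978% to 1.46%) in F1295A, 0.882% (0.685% to 1.12%) in D1240A, 1.08% (0.859% to 1.34%) in TKO and 1.94% (1.65% to 2.26%) in WT. The counting intervals of F1295A and TKO were apart for both shares at equal numbers and for the H3K27me3 share of the uncut lists, and overlapped for the uncut H3K4me3 share. The intervals of F1295A and D1240A overlapped in each case. All these intervals treat peaks as independent, although some shared pieces lay close together. Replicate spread is unknown, so none of them tests a difference between forms.

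The gene lists were chosen with earlier results of these data known, so their counts are descriptions beside the shares over all genes given above. All 20 housekeeping genes, GAPDH and ACTB among them, and 38 of 40 ribosomal protein genes carried H3K4me3 only. Of 35 regulators of Polycomb and H3K36 methylation 28 did, including EZH2, SUZ12, EED and NSD2, while CBX2 and CBX8 carried both marks. CBX8 had 10.0 kb of H3K27me3 and 7.38 kb of H3K4me3 within 10 kb, CBX2 11.4 kb and 7.42 kb. Among 18 cell cycle genes 14 carried H3K4me3 only, such as CCND2 (9.45 kb) and MYC (7.67 kb), and MYCL carried H3K27me3 only.

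Plasma cell genes mostly carried H3K4me3. Of 20, 14 carried H3K4me3 only (70.0%, against 43.5% of all genes), SDC1 both and 5 neither. H3K4me3 within 10 kb of the gene ends was 14.9 kb at PRDM1, 11.5 kb at IRF4 and 10.2 kb at XBP1, with 0 kb of H3K27me3 at each. Of 25 B cell genes, CXCR5, CD22 and CD40 carried H3K27me3 only, 5 carried H3K4me3 only and 17 neither. BCL6, the germinal centre repressor, carried H3K4me3 only in F1295A, neither mark in D1240A and TKO, and H3K27me3 only in WT, and its F1295A peak was low, at the 0.637th percentile. H3K4me3 was listed within 10 kb of the BCL6 ends in every form, over 9.26 kb in F1295A, 4.78 kb in D1240A, 2.64 kb in TKO and 5.61 kb in WT. T cell, natural killer and myeloid genes carried H3K4me3 in 1 of 24 and H3K27me3 only in 5, among them CD4, CD7 and TCF7.

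Among the developmental regulators, 11 of 39 HOX genes (28.2%) carried H3K27me3 only, against 4.82% of all genes. Of these 11, 9 were HOXC genes from HOXC4 to HOXC13 and 2 were HOXB6 and HOXB9, and a 121 kb peak covered both HOXC4 and HOXC9. HOXB7 and HOXB8 carried both marks, with 2.34 kb shared within 10 kb of their ends under a 35.4 kb H3K27me3 peak, 6 carried H3K4me3 only and HOXA9 was among the 20 with neither. The genes of a cluster share peaks and are not separate observations. Of 86 homeobox and PAX factors, 14 carried H3K27me3 only (16.3%), LHX4 and PITX3 both, and 17 H3K4me3 only (19.8%, against 43.5% of all genes). Of 77 T-box, SOX, GATA and bHLH factors, 8 carried H3K27me3 only (10.4%) and 18, SOX2 among them, H3K4me3 only (23.4%). GATA2, a regulator of blood stem cells, was counted as H3K27me3 only, with 26.6 kb of it, yet a 6.00 kb H3K4me3 peak lay inside the same domain, 2.29 kb into the gene from the start. D1240A and TKO had no H3K4me3 within 10 kb of the gene ends, and WT had 3.59 kb.

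Genes of signalling and the cell surface included further members with both marks at their ends. Of 16 Notch genes, DLL4 and the receptor NOTCH4 carried both, with HES1, HES5 and LFNG carrying H3K27me3 only. The ephrin, semaphorin, plexin and netrin list had SEMA6C (5.70 kb shared), PLXNA2 (3.56 kb) and EFNA1 with both marks among 54, and 8 with H3K27me3 only. FZD4, a WNT receptor, had 11.9 kb of H3K27me3 with 3.93 kb of H3K4me3 inside it, the single member of 38 with both. Also with both marks, the potassium channels KCNH2 (3.29 kb shared) and KCNH6 were 2 of 37, the integrins ITGA3 and ITGA7 2 of 26, NECTIN4 1 of 40 immunoglobulin-type adhesion genes and THBS3 1 of 40 matrix genes. None of 43 cadherins and protocadherins, with CDH1 carrying neither mark, and none of 41 TNF receptors and ligands carried both. Over all genes 0.971% carried both marks, and in lists of this size none or a single gene is near that share. Of the t(4;14) genes, FGFR3 carried both marks, PTP4A3 H3K27me3 only, and CCND2, DSG2 and NSD2 H3K4me3 only.

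**Figure D4:**
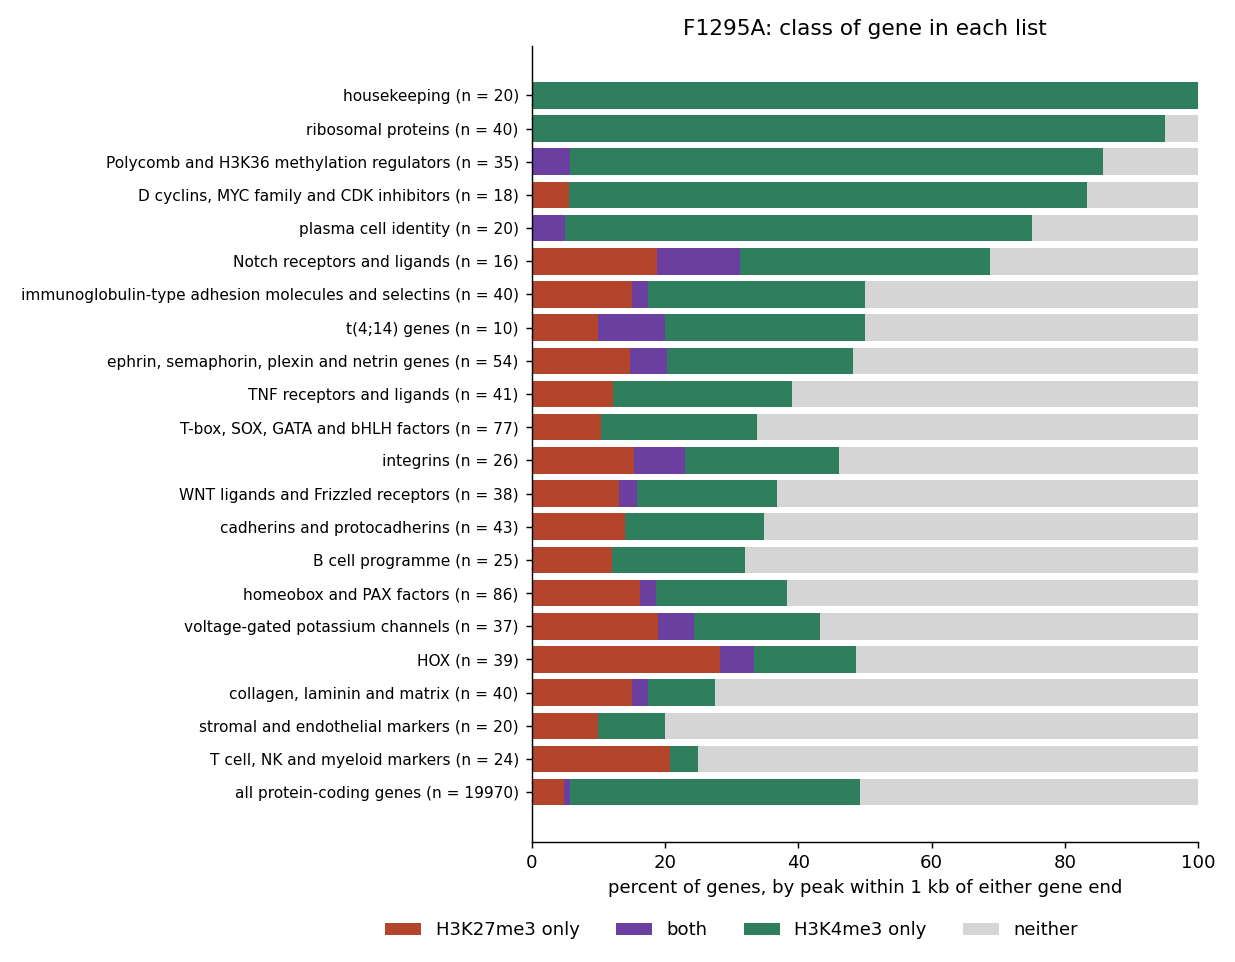
Percent of the genes of each list in F1295A that carried H3K27me3 only (red), both marks (purple), H3K4me3 only (green) or neither (grey) within 1 kb of either gene end, with all protein-coding genes at the bottom. Housekeeping and ribosomal protein genes are green over 100% and 95% of the bar, and the HOX list has the widest red part, 28.2%.

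Promoter sequence, which took no part in setting the classes, differed between them. In the 300-base RefSeq window (250 before the start to 50 after it), starts with both marks held a median of 26 CG dinucleotides (quartiles 17.5 and 33.5), starts with H3K27me3 only 15 (6 and 31), those with H3K4me3 only 28 (21 and 36) and those with neither 11 (4 and 25), against 22 over all 15811. A ratio of observed to expected CG of at least 0.6 was met by 83.0% (69.2% to 92.4%) of starts with both marks, 46.7% (42.5% to 50.9%) with H3K27me3 only, 91.5% (90.8% to 92.1%) with H3K4me3 only and 44.3% (43.2% to 45.4%) with neither. GC content alone separated them less, at medians of 67.3% at starts with both marks, 64.7% with H3K27me3 only, 66.3% with H3K4me3 only and 58.0% with neither.

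The letters TATAAA, sought on both strands (TTTATA on the other), were found in 8.51% (2.37% to 20.4%) of the windows with both marks, 11.2% (8.74% to 14.1%) with H3K27me3 only, 4.61% (4.14% to 5.12%) with H3K4me3 only and 13.98% (13.2% to 14.8%) with neither, and in 9.64% of all 15811. Of the printed promoters, FGFR3 with 51 CG in its full window and IRF4 with 32 were above the median of all starts, as were GATA2 with 29, SDC1 and DLL4 with 27 each, and CD38 with 4 was below it. The genes of the classes are not replicates, and a match is only a description of the letters.

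**Figure D5:**
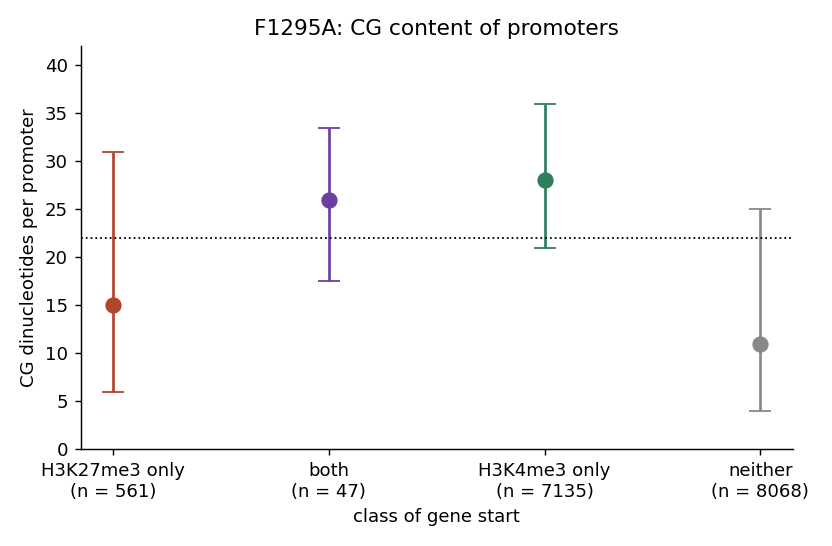
Median (point) and quartiles (bars) of the number of CG dinucleotides in the 300-base promoter window for F1295A gene starts with H3K27me3 only, both marks, H3K4me3 only or neither, with the median of all starts, 22, as a dotted line. Starts with both marks (26) sit beside those with H3K4me3 only (28), and those with H3K27me3 only (15) beside those with neither (11).

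Position relative to genes also differed between the classes of peak. A gene end lay within 1 kb of 82.3% (73.2% to 89.3%) of overlapping H3K27me3 peaks, 75% of abutting ones, 62.4% of near ones and 39.0% (36.7% to 41.3%) of exclusive ones. For H3K4me3 the shares were 78.8%, 83.3%, 86.1% and 86.9%. A known start lay within 1 kb of 59.4% of overlapping and 21.8% of exclusive H3K27me3 peaks, and of 52.5% and 74.2% of the H3K4me3 peaks. Because most H3K4me3 peaks lay at gene ends, an H3K27me3 peak that meets one is likely to be near an end too. The H3K27me3 shares thus follow in part from how the classes were set, and that part was not tested.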

How the data were processed

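H3K27me3 and H3K4me3 were measured by ChIPmentation in F1295A, D1240A, TKO and WT cells. The 8 deposited files are peak lists, and the authors' peak caller wrote for each peak its highest signal (coverage) and a total signal, a score summed over the peak. The submitters' processing notes name the tools SEACR 1.3, Bowtie2 2.4.5, FastQC 0.11.4 and Trimmomatic 0.36, with GRCh38 as the build. Peak calling mode, control, threshold and scaling are not stated there or in the labels. Since the labels give 1 list for both H3K27me3 samples of each form, how the authors combined them is unknown. IgG samples were not analysed here. Signal was used only to rank peaks within a list. In 73 F1295A H3K27me3 peaks (3.50%) total signal over width exceeded the highest signal, so it is no mean coverage there, and ranks by highest signal are given beside it.

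Overlap meant at least 1 bp, abutting a gap under 1 kb, near 1 to 10 kb and exclusive more. Genes were 19970 protein-coding RefSeq records of GRCh38.p14 on chromosomes 1 to 22 and X, and 15811 (79.2%) had a start through the RefSeq promoter table. The design used the start where 80% of genes had one and either gene end otherwise, so either end was used and the start became an alternative. All 769 entries of 22 gene lists matched. The members and lists were chosen with earlier results of these data known. Named genes were the genes always reported, the 10 with the most bases of each class within 10 kb of their ends, up to 4 genes with both marks from each list, the 5 widest and the 5 strongest peaks of each list, the 8 widest shared pieces and the 6 widest abutting pairs, with the genes at them. Other genes were named to spell out counts, after their values were seen. Python 3.11.15, numpy 2.4.6, scipy 1.17.1, pandas 2.3.3 and matplotlib 3.10.9 were used. The interval routines were tested on 20 simulated pairs of lists.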

Additional observations from a re-analysis of the deposited data

How the results depend on the processing

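In every setting tried, a smaller share of genes with H3K27me3 than of genes without it carried H3K4me3, but the size of the overlap moved. With the stronger 50% of each list by total signal, 1.92% of H3K27me3 and 0.486% of H3K4me3 peaks overlapped and 62.4 kb was shared, and by highest signal (chosen after seeing the data) 2.79% and 0.704%. With as many H3K4me3 as H3K27me3 peaks, 1.01% of H3K27me3 peaks overlapped and 67.6 kb was shared. Overlapping H3K4me3 peaks then stood at the 46.8th percentile of the cut list by total signal over width. The value reported above was the 21.1st (11.1 to 32.1), so their low rank by that measure was not kept in this setting. With overlap of at least 50% of the narrower peak, the shares were 2.54% and 0.668%. For genes, the start definition gave 561 with H3K27me3 only and 47 with both, and H3K4me3 at 7.73% of H3K27me3 genes and 46.9% of the others. The 2.5 kb window gave 21.6% and 47.4%, whole records 19.96% and 49.1%. The stronger 50% gave 51 with both, 4890 with H3K4me3 only, 7.02% and 25.4%, and equal numbers 59, 2636, 5.10% and 14.01%. Bases under both marks in the window left 87 genes, and both marks at the same end (chosen after seeing the data) 95. Fewer peaks or a narrower definition made these counts smaller by construction. The other 33 values stayed within the interval or 1.5-fold of those reported, as did 62 of 88 list counts. By start, HOXB7, HOXB8, CBX2, CBX8, ITGA3 and ITGA7 had no known start, and NECTIN4, NOTCH4, EFNA1 and KCNH6 (H3K27me3 only), THBS3 (H3K4me3 only) and PITX3 (neither) left the class of both marks. No paired analysis was possible because both H3K27me3 samples of a form share 1 list, which also prevented leaving out a replicate. Depth is unknown, so a peak absent from a list was not shown to be absent from the cells.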
